A study of Mus musculus with 2 samples.

Results

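The GENCODE annotation gives the type retained_intron to alternatively spliced transcripts that are thought to contain intron sequence of another transcript of the same gene. Of 21848 mouse transcripts with this type, 2607 drew at least 1 read in long-read RNA sequencing of mouse adrenal gland, and the 851 with at least 3 reads summed over both libraries, out of 16480 Known transcripts with that many reads, are described here. A Known transcript is one that the TALON program matched to an annotated transcript. The members were chosen by their reads summed over both libraries, so their levels are given as a description, and only differences between the libraries were tested. The mice were female B6CASTF1/J animals, the F1 cross between C57BL/6 and CAST, aged 14 days, and their adrenal glands were sequenced as 2 libraries of total RNA, biological replicates 1 and 2 of a single group with no treatment or control. By its tissue name replicate 1 came from 3 females and replicate 2 from 1, but each library's description mentions 3, so whether animals were pooled is not clear from the labels.

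Introns are normally removed from a nascent transcript in the nucleus. A transcript that keeps an intron may be held in the nucleus until the intron is spliced, or may reach the cytoplasm, where a stop codon read from the intron can send it to nonsense-mediated decay. Genes of splicing factors, above all the serine/arginine-rich (SR) proteins and their kinases, are known for introns of this kind. In a long read, a held intron shows as an exon that runs through the intron between 2 spliced junctions.

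The sequences below are 5 examples of short introns, up to 220 nt and inside coding sequence, that belong to members with a chain of introns of their own. They were picked after their values were seen, and are not a complete list of such introns or those with most reads. They are shown because they are the bases that the reads hold between spliced junctions. They come from the GENCODE M21 reference transcripts on mm10, not from the reads of these animals. Capitals mark the GT and AG ends and the first stop codon that the coding frame meets inside the intron.
Akap8l, chr17:32338355-32338456, minus strand: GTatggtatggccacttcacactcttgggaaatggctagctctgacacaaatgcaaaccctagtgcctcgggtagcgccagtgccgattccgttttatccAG
Alkbh6, chr7:30312389-30312590, plus strand: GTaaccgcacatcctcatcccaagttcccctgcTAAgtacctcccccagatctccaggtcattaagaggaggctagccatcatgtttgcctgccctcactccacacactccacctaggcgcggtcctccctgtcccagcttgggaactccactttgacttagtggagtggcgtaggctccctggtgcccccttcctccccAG
Chkb, chr15:89428545-89428713, minus strand: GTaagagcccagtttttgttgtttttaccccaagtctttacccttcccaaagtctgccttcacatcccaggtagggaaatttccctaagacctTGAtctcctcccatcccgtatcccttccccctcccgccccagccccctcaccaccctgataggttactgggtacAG
Slc1a5, chr7:16795953-16796023, plus strand: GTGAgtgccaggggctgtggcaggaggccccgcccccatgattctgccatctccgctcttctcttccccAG
Mdp1, chr14:55660099-55660167, minus strand: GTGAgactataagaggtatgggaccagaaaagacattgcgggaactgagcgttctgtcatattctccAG
In Slc1a5 and Mdp1 the frame meets TGA after 1 base of the intron, so that the stop overlaps the GT. In Alkbh6 it meets TAA after 33 bases and in Chkb TGA after 93. The Akap8l intron, 102 nt long, is a multiple of 3 and held no stop in frame. It is an intron of the coding Akap8l-209, and annotated transcripts other than the member also hold these bases as exon.

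Longer introns are shown by their ends. The 5′ sites are 6 exon and 12 intron bases, and capitals mark the first intron bases, GT.
Rsrp1 5′ site: gtggagGTaagtgccttc
Srsf5 5′ site: tggcagGTttgttgaaat
Srsf7 5′ site: aagcagGTatttaattaa
These introns are Rsrp1 chr4:134925433-134926734 (1302 nt), Srsf5 chr12:80947866-80949094 (1229 nt) and Srsf7 chr17:80204388-80205261 (874 nt, minus strand). The Rsrp1 intron begins with GTAAG, and the Srsf5 and Srsf7 introns begin with neither GTAAG nor GTGAG.

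The 2 members below are among the 3 with most reads, Cox4i1-204, Rpl5-204 and Sparc-205, none of which holds a whole intron. Shown is the intron stretch with which their first exon begins, and capitals mark the AG before the next exon part.
Cox4i1-204, chr8:120672590-120672724, plus strand: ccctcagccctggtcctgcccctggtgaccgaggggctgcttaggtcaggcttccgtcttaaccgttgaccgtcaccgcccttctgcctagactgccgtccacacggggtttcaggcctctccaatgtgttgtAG
Sparc-205, chr11:55402072-55402165, minus strand: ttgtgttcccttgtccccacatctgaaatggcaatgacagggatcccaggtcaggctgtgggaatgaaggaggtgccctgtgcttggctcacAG
These 135 and 94 nt are what sets the annotated transcripts apart from the 3′ part of the coding transcript. TALON matches a read to a Known transcript by its chain of introns. The deposited annotation gives a Known transcript its annotated ends, so the files do not show whether the reads contain these bases.

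The members therefore fell into 3 classes by what their junctions can show. In 570 of 851 members the chain of introns was also a run of consecutive introns inside another annotated transcript of the gene that is not retained_intron (a shared chain), and reads with such a chain need not hold an intron. These took 7759 of 9957 member reads in replicate 1 (77.9%, exact Clopper-Pearson 95% interval 77.1 to 78.7) and 5738 of 7169 in replicate 2 (80.0%, 79.1 to 81.0), a mean of 79.0% ± 1.49 (SD, n = 2). A chain of their own was found in 143 members, with 1273 and 897 reads (12.6% ± 0.193 of member reads), and 132 of these held a whole intron in an internal exon. The other 138 members were single exons without a junction, with 925 and 534 reads (8.37% ± 1.30). Of these, 68 held at least 1 whole intron of another transcript and 70 held none. For most reads, then, the type retained_intron describes the annotated model and is not seen in the junctions.

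**Figure D1:**
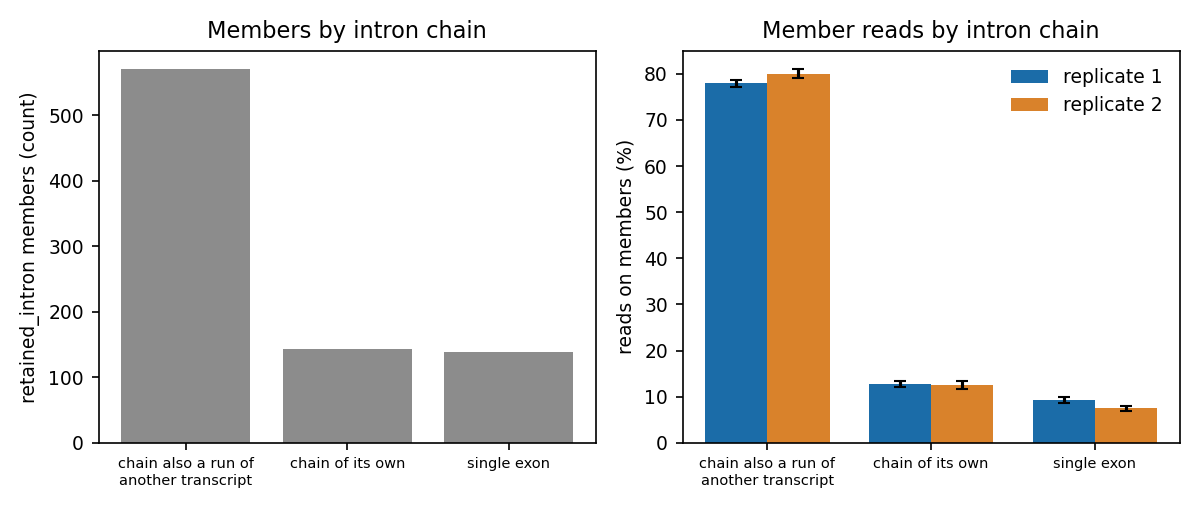
Left, number of members (vertical axis, count) by class of intron chain. Right, share of member reads (vertical axis, %) in each class, blue for replicate 1 and orange for replicate 2, with exact 95% counting intervals. Shared chains held 570 of 851 members and 77.9% and 80.0% of reads.

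Other transcript types gave a comparison for the shared chains. A chain that is a run of a protein_coding transcript was found for 556 of 851 retained_intron members (65.3%), for 109 of 419 processed_transcript transcripts of at least 3 reads (26.0%) and for 10 of 343 nonsense_mediated_decay transcripts (2.92%). By reads, the share was 77.3% and 79.4% for the members, 30.6% and 26.3% for processed_transcript, and 2.98% and 2.45% for nonsense_mediated_decay, in replicates 1 and 2.

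Replicate 1 held 1143111 reads and replicate 2 held 991731, of which 810536 and 740408 were Known reads of annotated genes. Of the markers of adrenal cortex all 6 had reads, and of those of chromaffin cells, the adrenaline-making cells of the medulla, all 5. Summed over the 6 hepatocyte markers, replicate 1 had 682 and replicate 2 had 74621 CPM (counts scaled to a fixed total of gene reads). The adrenal cortex markers had 54122 and 24183 CPM, and the chromaffin markers 11562 and 4449 CPM. Skeletal muscle markers, of which 3 of 4 had reads, had 60.1 and 1511 CPM. Replicate 2 thus goes against its label in part, and results that differ between the libraries are to be read beside these values.

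Members were mostly low and mostly seen in both libraries. In replicate 1, 818 members had reads and in replicate 2, 764, while 731 had reads in both, 87 in replicate 1 only and 33 in replicate 2 only. Exactly 3 reads, the minimum, were drawn by 208 members, and 456 transcripts just outside it had 2. At least 10 reads were reached by 221 members and at least 100 by 14. The members lay in 766 genes, 689 of which had 1 member, and 832 members were in protein_coding genes. Their median was 3 exons (quartiles 2 and 5) and 1074 nt (678 and 2250). Among the 833 in genes with a coding transcript, 827 had fewer exons than the coding transcript with most exons.

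Pooled over their genes, the members took 9957 of 143151 Known reads in replicate 1 (6.96%, 95% interval 6.82 to 7.09) and 7169 of 133518 in replicate 2 (5.37%, 5.25 to 5.49), a mean of 6.16% ± 1.12. The intervals do not overlap. With each gene weighted by its reads over both libraries, the values were 6.31% and 6.01%, so that the gap was smaller when both libraries were given the same mix of genes. Trf, transferrin, a gene of liver, had 266 Known reads in replicate 1 and 25982 in replicate 2, of which members took 0 and 15. Without Trf the pooled share was 6.97% (6.84 to 7.10) and 6.65% (6.50 to 6.80), and for members of at least 10 reads it was 12.7% and 12.8%, against 12.7% and 8.25% with it. Of all Known reads of the libraries, the members took 1.23% and 0.968%. Over the 555 genes with at least 20 Known reads in each library the median share was 3.61% and 2.86%. In 10 of these genes the mean share was at least 50%, in 104 at least 10%, and in 340 under 5%.

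A few genes carried most of the reads. Cox4i1 alone had 26.2% of member reads, the leading 4 genes (Cox4i1, Rpl5, Sparc and Rsrp1) 48.8% and the leading 20 genes 60.0%. Without these 4 genes the pooled share was 3.86% and 2.78%, and without Trf as well 3.87% and 3.48%.

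Cox4i1, a subunit of cytochrome c oxidase in the mitochondrial respiratory chain, lies on chr8:120668222-120674207. Its members took 2381 of 4013 Known reads in replicate 1 (59.3%) and 2112 of 3573 in replicate 2 (59.1%), a mean of 59.2% ± 0.157. Cox4i1-204, with 2364 and 2108 reads, is 3 exons long and its chain is the last 2 of the 4 junctions of the coding Cox4i1-201. That coding transcript had 1600 and 1432 reads. The annotated first exon of Cox4i1-204 begins inside intron 2, which is 3342 nt long, and holds its last 135 nt.

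Counting reads by how many junctions they held from the 3′ end showed how unevenly they were spread. In Cox4i1, models with the last 3 junctions had 60 and 62 reads and those with the last junction only 17 and 4, against 2364 and 2108 for the last 2. The order of the runs was the same in both libraries. Rpl5, a protein of the large ribosomal subunit, had 1025 of 1172 Known reads on members in replicate 1 and 653 of 727 in replicate 2 (87.5% and 89.8%, mean 88.6% ± 1.67). Rpl5-204 holds the last 2 of 7 junctions, with 1018 and 651 reads, whereas the full coding chain had 147 and 74 reads. Chains with 3 to 6 junctions had at most 6 reads in a library. The annotated first exon of Rpl5-204 begins inside intron 5, which is 848 nt long, and holds its last 603 nt. Ribosomal protein genes have processed pseudogenes, and how the authors' mapping placed reads among such copies is not given in the sources used here.

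Sparc, a secreted glycoprotein of the extracellular matrix, had more reads on the runs beside its members than Cox4i1, Rpl5 or Fh1. Members took 789 of 2256 Known reads in replicate 1 and 490 of 1389 in replicate 2 (35.0% and 35.3%, mean 35.1% ± 0.215). The last 9 junctions, the chain of the coding Sparc-201, had 1183 and 744 reads. The last 4, the chain of Sparc-205, had 716 and 448, with 105 and 64 on the last 5, 73 and 42 on the last 3, the chain of the member Sparc-203, and 130 and 78 on the last 2.

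Fh1, fumarate hydratase of the citric acid cycle, repeated most closely among the leading genes. Members had 115 of 579 and 123 of 617 Known reads (19.9% in both, ± 0.0519). Fh1-203, the last 2 of 9 junctions, had 111 and 121 reads, the full chain 464 and 494, and all other runs at most 4. Fxyd1, which regulates the sodium pump, had 111 of 177 and 135 of 226 reads on Fxyd1-213 (62.7% and 59.7%, mean 61.2% ± 2.11). Its first exon holds only the last 16 nt of an 847 nt intron. Psmb6, a catalytic subunit of the proteasome, had 96 of 443 and 49 of 281 on Psmb6-202 (21.7% and 17.4%), which holds the last of 5 junctions.

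**Figure D2:**
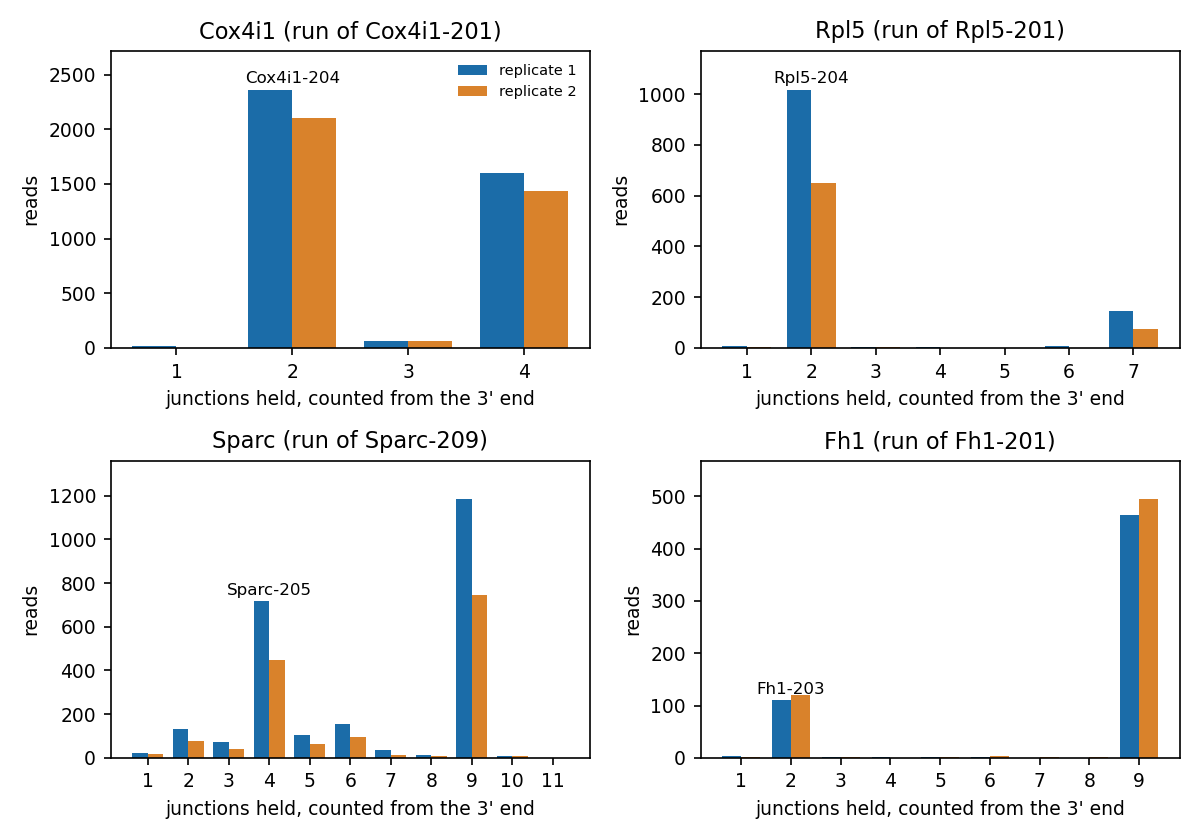
Reads (vertical axis, count) on models that hold only the last 1, 2, 3 and so on junctions of a coding transcript (horizontal axis, number of junctions from the 3′ end), for Cox4i1, Rpl5, Sparc and Fh1, blue for replicate 1 and orange for replicate 2. The run that is the chain of a leading member is named, and in Cox4i1 it had 2364 and 2108 reads against 60 and 62 for the next longer run.

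Of the shared chains, 401 were a run at the 3′ end of the other transcript (12247 reads) and 158 a run at its 5′ end (1175 reads). The annotated start lay in an intron of that transcript in 309 members, with 10945 reads. To see whether a run with an annotated retained_intron transcript had more reads than its neighbours, every such 3′ run in genes with at least 20 Known reads in each library was taken, whatever its reads. The 1282 runs had 11059 reads, and the runs 1 junction longer or shorter without an annotated transcript had a mean of 3651.5 summed over the same runs. The annotated run was above its neighbours in 387 cases, below one in 364 and tied in 531. Without Cox4i1, Rpl5 and Sparc, which were set aside after their values had been seen, the sums were 3639 and 3148.5. The net excess of the sums thus lay almost wholly in these 3 genes. Single runs still differed widely in both directions. Fxyd1-213 had 246 reads against 0 on its neighbour and Fh1-203 232 against 4, while Atp5j-208 had 11 against 651. Of the 1278 runs left, 384 were above their neighbours, 363 below one and 531 tied. Unannotated runs belong to the class ISM (incomplete splice match), and whether reads of that class were filtered differently is not given in the sources used here.

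Other members with shared chains and high shares were Rex1bd-207, with 80 of 162 and 58 of 108 Known reads (49.4% and 53.7%), and Stau1-209, with 45 of 87 and 36 of 77 (51.7% and 46.8%). Stau1 is a double-stranded RNA-binding protein that localises mRNA. Ndufa7 of respiratory complex I had 67 of 441 and 45 of 343 (15.2% and 13.1%), almost all on Ndufa7-204, a run at the 5′ end. In these 3 genes the intervals of the 2 libraries overlap. Ppdpf had 4 members, with 32 of 76 and 38 of 81 Known reads between them (42.1% and 46.9%), and 2 of these, Ppdpf-203 and Ppdpf-206, had chains of their own.

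Members with a chain of their own took 8.14% of the Known reads of their genes in replicate 1 and 8.36% in replicate 2 (mean 8.25% ± 0.159), and 4.87% and 5.13% without Rsrp1. They were 0.157% and 0.121% of all Known reads. For these, retention was also measured on reads of every class: reads in which the intron lies in an exon between 2 junctions, over those plus the reads with exactly its junction. Reads that remove the intron by another junction, such as a longer one, are in neither count, so the percentages can be too high. Of 124 such introns, 107 had at least 20 informative reads in each library. Their median retention was 7.27% in replicate 1 and 6.98% in replicate 2, with 4 introns at a mean of 50% or more, 42 at 10% or more and 38 under 5%. Over all 45353 introns of Known transcripts with as many reads the median was 0, and 283 (0.624%) reached 10%. These introns were chosen through reads that hold them, so this difference is a description.

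Rsrp1, an arginine/serine-rich protein gene on chr4:134923592-134927372, led this class. Rsrp1-204 took 543 of 667 Known reads in replicate 1 and 369 of 443 in replicate 2 (81.4% and 83.3%, mean 82.4% ± 1.33), and the spliced coding Rsrp1-201 took 114 and 67. Its 1302 nt intron was held by 565 reads and spliced out by 121 in replicate 1, and by 381 and 70 in replicate 2. Retention was 82.4% (79.3 to 85.1) and 84.5% (80.8 to 87.7), so that both libraries were high and overlapped.

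The kinase Clk1, which phosphorylates SR proteins, had 10 of 20 and 14 of 25 Known reads on Clk1-212. Its 871 nt intron was held by 11 reads and spliced by 10 in replicate 1 (52.4%), and by 14 and 7 in replicate 2 (66.7%). The 7 spliced reads of replicate 2 cannot include both the 6 Known reads of the coding Clk1-201 and the 5 of Clk1-210, a nonsense_mediated_decay transcript. Any reads that remove the intron by another junction would lower these percentages. Srsf7, an SR splicing factor, had 2 members with 21 of 79 and 15 of 46 Known reads (26.6% and 32.6%). Its 874 nt intron was retained at 37.5% (29.1 to 46.5) and 37.9% (26.2 to 50.7). Akap8l, a nuclear protein related to A-kinase anchors, had 41 reads that held its 102 nt intron and 17 that spliced it in replicate 1, and 17 of each in replicate 2, or 70.7% (57.3 to 81.9) and 50% (32.4 to 67.6). It is among the 4 introns at a mean of 50% or more. The intron belongs to the coding Akap8l-209. Known reads that held it numbered 22 and 8, of which Akap8l-206 had 3 and 3. Most of them were thus on other annotated transcripts, in which these bases are exon, so the percentages are not retention by the member alone. A second Akap8l intron, of 1443 nt, was at 44.2% and 62.5%. Each pair of intervals overlaps, so no difference between the libraries is shown for either of these 2 introns.

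Introns of several other genes were held at lower levels. Alkbh6, a member of the AlkB family of dioxygenases, kept its 202 nt intron at 34.1% (24.5 to 44.7) and 40% (25.7 to 55.7). Chkb, choline kinase beta, was at 26.4% and 29.9%. Slc1a5, a transporter of neutral amino acids, kept its 71 nt intron at 18.0% and 15.4%, and Mdp1, a phosphatase, its 69 nt intron at 18.8% and 13.6%. Levels near 10% were found in Maged1 (10.5% and 9.59%), a MAGE family protein, and in Stub1 (11.7% and 9.05%), a ubiquitin ligase that works with chaperones. None of these 6 differed beyond the overlap of its counting intervals.

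**Figure D3:**
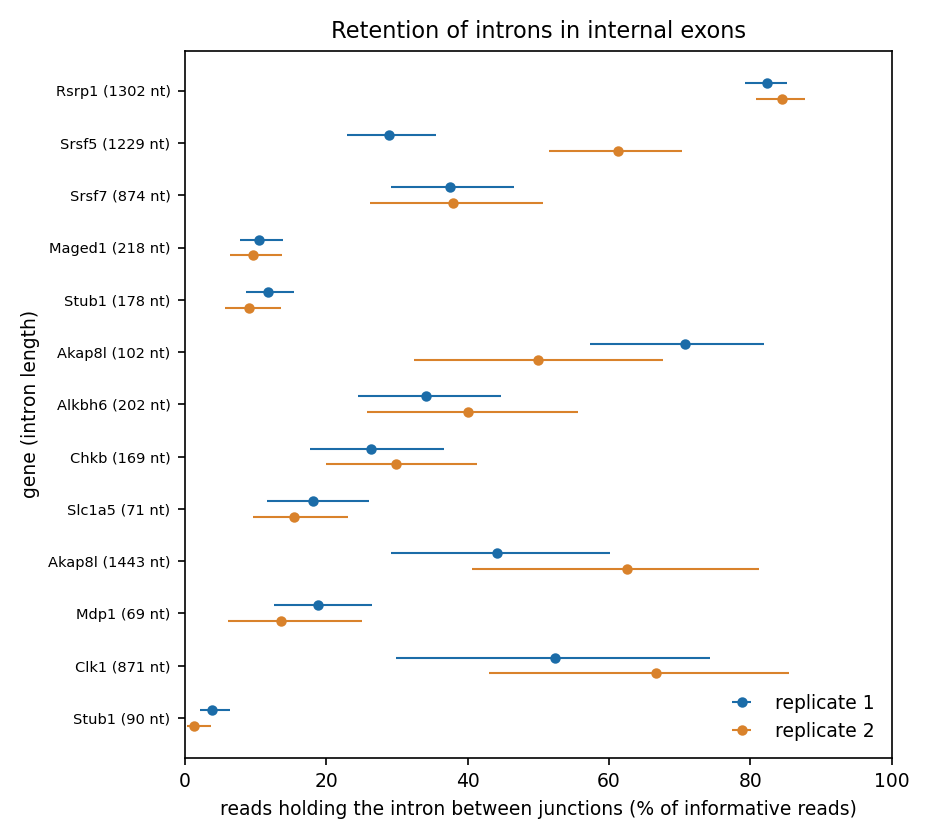
Share of informative reads that hold the intron between 2 junctions (horizontal axis, %) for introns of own-chain members with at least 20 informative reads in each library, in genes that the text names for such introns, with gene and intron length on the vertical axis. Points are the 2 libraries, blue for replicate 1 and orange for replicate 2, with exact 95% counting intervals. Rsrp1 lies above 80% in both, and Srsf5 is the only intron shown whose intervals lie apart.

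The member itself was often not the only source of the reads that hold its intron, and its part varied. Maged1-207 carried 34 of 43 and 20 of 26 of them, and Akap8l-206 3 of 41 and 3 of 17 for the 102 nt intron. Rsrp1-204 carried 543 of 565 and 369 of 381 of the reads that hold its intron. In Srsf7 the Known class had 21 of 48 and 15 of 25 reads, and 26 and 10 belonged to NIC models, which join annotated splice sites in an unannotated combination. In 85 of the 107 introns the reads holding the intron outnumbered those of the member by any margin.

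Ccnl2, a cyclin found with the splicing machinery, had 63 of 92 and 55 of 77 Known reads on Ccnl2-205 (68.5% and 71.4%, mean 70.0% ± 2.09). From the same splice donor Ccnl2-205 removes 551 nt and then reads on, where the coding Ccnl2-201 removes 2341 nt. The shorter junction had 181 and 123 reads of all classes and the longer 34 and 28. Reads with the shorter junction need not keep the rest, since an annotated intron of 1664 nt lies after it. Reads that splice out that intron were not counted, so these numbers do not measure retention. Over all reads of the gene the member's share was 24.9% and 31.1%, since most Ccnl2 reads were on models that are not annotated. Rgs3, a regulator of G-protein signalling, had 12 of 24 and 16 of 34 Known reads on Rgs3-207 (50% and 47.1%), a chain of its own without a whole intron of another transcript inside an exon.

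Single-exon members were led by Pgp, phosphoglycolate phosphatase. Pgp-202 had 112 of 512 and 47 of 249 Known reads (21.9% and 18.9%, mean 20.4% ± 2.12), against 400 and 202 for the spliced Pgp-201. Ss18l2 had 63 of 91 and 39 of 77 on a single-exon and a shared-chain member together (69.2% and 50.6%). Hs6st1, an enzyme that sulfates heparan sulfate, had 34 of 66 and 18 of 49 (51.5% and 36.7%), and Gm43305, which has no coding transcript with reads, 17 of 26 and 21 of 32 (65.4% and 65.6%). A read without a junction shows no splicing, and what lay beyond its ends is not in the files.

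The 133 introns in internal exons of own-chain members were shorter than introns of coding transcripts taken at any position. Their median length was 224 nt (quartiles 112 and 534), against 397 nt for the 1001 spliced introns of coding transcripts of the same genes and 1314 nt for the 119605 of all genes. Within their own gene, 77 of 128 (60.2%) were shorter than the median of the other introns and 27 (21.1%) no longer than the shortest. An intron in an internal exon has a junction on each side. None of the 125 inside a coding sequence was the first or last intron of its coding transcript, whereas the comparison introns include first and last ones. The sets thus differ in position as well, and the part of this in the lengths was not tested. The 714 introns of the same kind in annotated retained_intron transcripts with 0 reads had a median of 216.5 nt, so length did not set the members' introns apart from those without reads.

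GC content was 54.6% in the members' introns and 51.4% in those without reads. The ends were GT and AG in 131 of 133 (98.5%, and 98.5% in those without reads), and the first bases were GTAAG or GTGAG in 54.1% and 52.7%. Of 125 introns inside a coding sequence, 114 (91.2%) gave a stop codon in frame, after a median of 26.5 intron bases, against 604 of 687 (87.9%) with a median of 32 for those without reads. Only 3, the Akap8l intron among them, had a length divisible by 3 and no stop. The Srsf5 intron met its stop after 6 bases and the Rsrp1 intron after 48.

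Gene lists were described by counts. Of 14521 genes with Known reads, 766 (5.28%) had a member and 134 (0.923%) an own-chain member. Among SR proteins, their kinases and SR-related proteins, 12 of 32 genes had a member (37.5%) and 7 an own-chain member (21.9%). The members took 24.6% and 27.5% of the Known reads of that list. Rsrp1 decided this share, since own-chain members took 23.7% and 26.3% with it and 2.59% and 4.27% without it. Besides Rsrp1, Srsf7, Clk1 and Srsf5, the own-chain genes were Luc7l, with 7 of 30 and 2 of 23 Known reads, Clk2, with 2 of 49 and 4 of 38, and Srpk1, with 2 of 30 and 1 of 26. The spliceosome list had members in 10 of 46 genes with 0.623% and 0.940% of Known reads, led by U2af1, which helps to recognise the 3′ splice site (6 of 68 and 4 of 27), and followed by Snrpb2 (5 of 37 and 2 of 23), Rbm17 (4 of 97 and 2 of 67) and Sf3b3 (2 of 57 and 3 of 67). The hnRNP list had members in 4 of 31, none with a chain of its own, led by Hnrnpr-211 with 5 and 2 reads, and Hnrnpl, Hnrnpll and Pcbp2 had 3 summed reads each.

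Ribosomal protein genes had members in 35 of 84 cases (41.7%) and respiratory chain genes in 20 of 95 (21.1%), but nearly all of shared chain or single exon. Own-chain members were found in 4 ribosomal protein genes, with 36 of 29637 and 17 of 18157 Known reads (0.121% and 0.0936%), and in none of the respiratory chain. All members together took 4.53% and 4.47% of the ribosomal and 4.96% and 4.73% of the respiratory reads, with Rpl5 and Cox4i1 at the head. Rpl26 (37 of 426 and 21 of 244) and Rpl10a (35 of 416 and 16 of 228) were further ribosomal protein genes with members, and Ndufa6 (33 of 574 and 32 of 436) and Cox6a1 (21 of 1110 and 22 of 942) came next to Ndufa7.

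Genes of the adrenal's own functions were set beside the 5.28% of all genes that had a member. Lists of 21 genes are too small to tell their counts from that share. In the steroid synthesis list 1 of 21 genes (4.76%) had a member, Soat1, which esterifies cholesterol. The Soat1 member had 5 and 2 reads of the list's 43801 and 16533 Known reads. None of 21 chromaffin genes had one. Of their 12226 Known reads in replicate 1, 1 was on a retained_intron transcript, below the minimum for members, and of 4370 in replicate 2 none was, which allows up to 0.0686%, for counting error only. The annotation offers little there, with 6 retained_intron transcripts in 4 of the chromaffin genes and 22 in 9 of the steroid synthesis genes, against 115 in 29 of the 32 SR genes. The translation factor list takes every coding gene whose symbol starts with Eif or Eef, whatever its function. In it 5 of 65 genes had a member, each with a shared chain and at most 3 reads in a library, Eef1g, Eif2s2, Eef1akmt2, Eif3l and Eef1d. Of the 13 snoRNA host genes, Gas5 and Snhg5 had one, with 3 reads each. No member was found in Ogt, Mat2a or the O-GlcNAcase gene, which are known for regulated introns, with 359 and 248 Known reads between them.

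**Figure D4:**
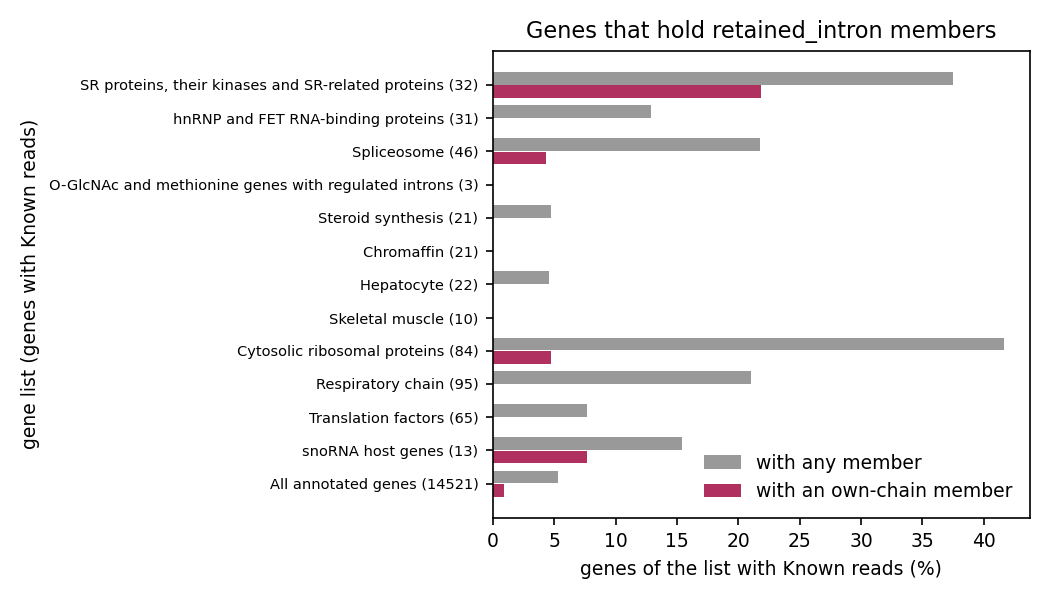
Genes of each list that had a retained_intron member (grey) or a member with a chain of its own (red), as a share of the list's genes with Known reads (horizontal axis, %), with the number of such genes in brackets. Ribosomal protein genes reached 41.7% with any member and 4.76% with an own chain, SR genes 37.5% and 21.9%, and all annotated genes 5.28% and 0.923%. The lists differ in how many annotated retained_intron transcripts and reads their genes have, and the shares are not adjusted for this.

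The libraries were compared transcript by transcript with Fisher's exact test of a transcript's reads against the other Known reads of its gene, two-sided, adjusted by Benjamini-Hochberg over all 6187 Known transcripts tested. These p-values compare the reads of 2 libraries and say nothing on the animals behind them. Over all transcripts 56 passed an adjusted p of 0.05 (0.905%), and of the 627 members tested 3 passed (0.478%, against 0.953% of the other transcripts). Before adjustment 5.98% of all and 3.83% of members had p under 0.05. The share was higher in replicate 2 for 239 members and lower for 387, with a median difference of -0.36 percentage points. Over all transcripts 3068 were higher and 3099 lower. Shares of a gene's transcripts add to a fixed total, which holds the split over all transcripts near even. That split is therefore no yardstick for the members, which had a median of 5 summed reads, and their direction was not tested.

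The 3 were Srsf5-212, C4b-203 and Usp19-211. Srsf5-212 had 5 of 145 Known reads in replicate 1 and 13 of 52 in replicate 2 (3.45% and 25%, adjusted p = 0.00418 by Fisher's exact test). C4b-203 had 27 of 27 and 14 of 43 (adjusted p = 7.3e-07 by Fisher's exact test), because the 29 reads on the full-length C4b-201 were all in replicate 2. C4b is a complement component made in liver, and the hepatocyte markers were at 682 CPM in replicate 1 and 74621 CPM in replicate 2, whose part in the result was not tested. It is also nearly identical to C4a, so that its counts are uncertain. Usp19-211, a single exon of a deubiquitinase gene, had 31 of 72 and 7 of 55 (43.1% and 12.7%, adjusted p = 0.0249 by Fisher's exact test). None of the 3 passed when all reads of the gene were the denominator, with adjusted p of 0.131, 0.918 and 0.204 by Fisher's exact test.

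**Figure D5:**
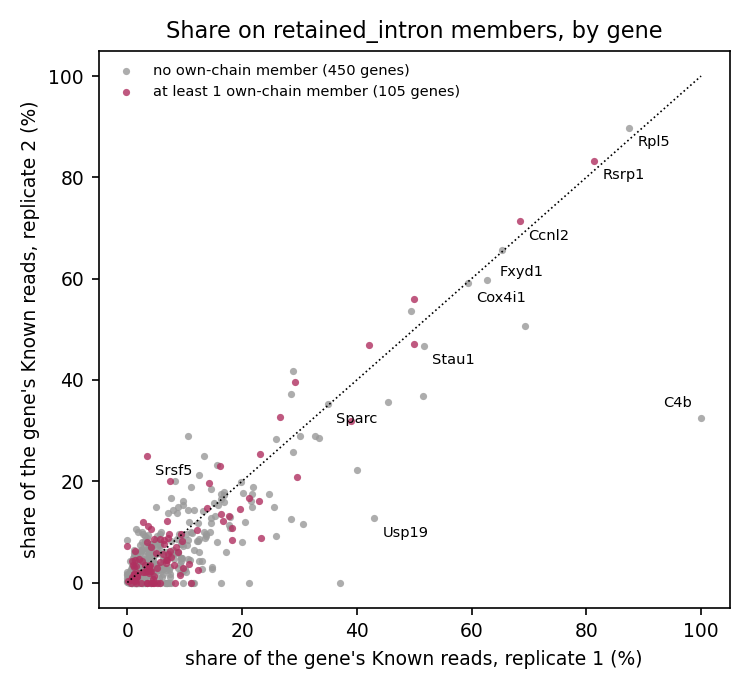
Share of each gene's Known reads on retained_intron members in replicate 1 (horizontal axis, %) and replicate 2 (vertical axis, %), for the 555 genes with at least 20 Known reads in each library. Red points have an own-chain member, grey points do not, and the dotted line marks equal shares. C4b (100% and 32.6%), Usp19 and Srsf5 lie far from the line, while Cox4i1, Rpl5, Sparc and Rsrp1 lie on it.

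Retention of introns was compared in the same way, on every model with an exon through the whole intron. Of 10583 introns tested 145 passed (1.37%), and of 392 held by members 3 passed (0.765%). The 1229 nt intron of Srsf5, an SR splicing factor, was held by 61 reads and spliced out by 150 in replicate 1 (28.9%, 22.9 to 35.5), and held by 69 and spliced out by 43 in replicate 2 (61.6%, 51.9 to 70.6), with an adjusted p of 3.7e-06 by Fisher's exact test. Between 2 junctions it was held by 61 and 68 reads, with an adjusted p of 0.000166 by Fisher's exact test over the 6258 introns tested that way. Of these reads 51 in each library were on NIC models and 5 and 13 on Srsf5-212. Reads that hold the intron were thus about as many in both libraries, and those that splice it out fewer in replicate 2. The libraries also differed in their markers, with 682 and 74621 CPM of hepatocyte and 54122 and 24183 CPM of adrenal cortex markers, and the part of this in the Srsf5 difference and in the other differences between the libraries was not tested. The other 2 introns lie in the first exon of a shared-chain member and had 0 reads between junctions. They are in Nudt8, a nudix hydrolase (13 held and 17 spliced, then 0 and 21, adjusted p = 0.0240 by Fisher's exact test), and in Tmed4, a cargo receptor of the secretory pathway (28 and 156, then 3 and 114, adjusted p = 0.0263 by Fisher's exact test).

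Of the 107 introns held between junctions and measured in both libraries, 105 had overlapping counting intervals. The intervals lay apart in Srsf5 and in Rab4b, whose intron had 0 reads held and 48 spliced in replicate 1, and 6 and 18 in replicate 2. Overlap was not counted over all introns, and wide intervals at low counts overlap easily, so the count is not particular to members. Tested between junctions, 2 of 6258 introns passed, and 1 of 202 held by members. The median absolute difference was 2.48 percentage points, with 42 introns higher and 64 lower in replicate 2.

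Of the 33 members seen in replicate 2 only, some were in genes known from liver, and the 5 below were chosen after their values were seen. Others, such as Lamtor3-208 with 0 of 100 and 5 of 59 Known reads, were in genes with reads in both libraries. Cyp2c70, a bile acid hydroxylase of mouse liver, had 0 of 1 and 44 of 270 Known reads on Cyp2c70-202. Vtn, the plasma protein vitronectin, had 0 of 6 and 18 of 725, Aadac, a liver deacetylase, 0 of 1 and 11 of 164, and Masp2, a protease of the complement lectin pathway, 0 of 0 and 9 of 60. Trf had 0 of 266 and 15 of 25982 (0.0577%). In all 5 the gene itself had more Known reads in replicate 2, the library with 74621 CPM of hepatocyte markers against 682, and the part of liver RNA in this was not tested. Seen in replicate 1 only were Nudt8-202, with 10 of 27 and 0 of 21, and Nagk-210, with 8 of 49 and 0 of 29.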

How the data were processed

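Long-read cDNA of 2 mouse adrenal gland libraries was analysed from the tables the authors deposited. Per the file headers, these hold whole read counts per transcript model with TALON classes, unscaled and not pooled, beside a transcript annotation on mm10 built on GENCODE M21, the build and release also named in the submitters' processing notes. No aligner, TALON version or read filter is given in the sources used here. All other values were computed with Python 3.11.15, numpy 2.4.6 and scipy 1.17.1, and figures with matplotlib 3.10.9.

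Members were Known transcripts of type retained_intron with at least 3 summed reads, a transcript missing from a table counting as 0. The members and gene lists were chosen with earlier results of these data known. A shared chain is a run of consecutive introns inside another annotated transcript that is not retained_intron. Shares have exact Clopper-Pearson 95% intervals, and mean ± SD is over 2 libraries. Fisher's exact test, two-sided with Benjamini-Hochberg adjustment at 0.05 over all features tested, was applied to Known transcripts of at least 3 reads in genes with at least 20 Known reads in each library and at least 2 Known transcripts, and to introns with at least 20 informative reads in each library and at least 1 retaining read. Both tests were tested on simulated data. Retention between 2 junctions was added after the data had been seen. Shares within a gene need no scaling for depth. Total reads were 1143111 and 991731. The reads carry no molecular identifiers and are not independent molecules. Intervals, limits and tests therefore cover counting error only, and the spread between libraries may be technical. A count of 0 was taken to allow 3 counts.

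Named genes were the 12 with most member reads, the 8 further genes of highest share with at least 20 member reads, those past a test and the 4 with most member reads in each list. Members outside this rule (Maged1, Stub1, Akap8l, Alkbh6, Chkb, Slc1a5, Mdp1, Atp5j, Rab4b, the remaining SR genes and translation factor, and those seen in 1 library) were chosen after their values were seen. Some items that the rule or the values picked are not reported here. Sequences are the GENCODE M21 reference, in which all 851 members were matched by identifier and length.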

Additional observations from a re-analysis of the deposited data

How the results depend on the processing

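The number of members moved with the read minimum, from 2607 at 1 read to 505 at 5, 221 at 10 and 89 at 20, and was 376 to 570 when the minimum of 3 was asked of 1 library alone. In replicates 1 and 2 the pooled share was 1.23% and 0.968% of all Known reads, 12.7% and 8.25% for members of at least 10 reads, and 3.61% and 2.86% as a median over genes. It was 5.66% and 4.55% of all reads of the host genes. With alternatives chosen after seeing the data it was 8.14% and 8.36% for own-chain members, 3.86% and 2.78% without the 4 leading genes, 3.87% and 3.48% without these and Trf, 6.97% and 6.65% without Trf alone, and 12.7% and 12.8% for members of at least 10 reads without Trf. The mean of both libraries was 5.37% to 6.96% with 1 library left out. Members past the share test numbered 1, Cdkn1c-204, with all reads of the gene as denominator, against 3. Introns past the retention test fell from 145 to 4 with Known models only, 31 with multi-exon models only and 2 with the intron between junctions, the last chosen after seeing the data, and members' introns from 3 to 1 with multi-exon models and 1 between junctions. The alternatives that drop models leave fewer retaining reads. Of the shares of the 45 genes that the naming rule picked, 17 moved beyond the spread of the libraries when taken over all reads of the gene. No paired analysis was possible because there is 1 group with 1 library per replicate number. Members near the minimum rest on few reads, and a share of 0 in 1 library was often not distinguishable from a low share at this depth.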
